A study of Mus musculus with 8 samples.

Results

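The genes described here are 10 regulators of mitochondrial gene expression: the PGC-1 family of coactivators (Ppargc1a, Ppargc1b and Pprc1), the nuclear receptors Ppara and Esrra, the transcription factors Nrf1 and Gabpa, the mitochondrial transcription proteins Tfam and Tfb2m, and the deacetylase Sirt1. They were chosen by name, and all 10 had at least 1 probe set that names a single gene, out of 19938 such genes in the table. Where a gene had several probe sets, the one with the strongest mean signal stands for it, and the second probe sets of Ppargc1a and Tfb2m serve as a check.

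RNA of 8 livers was hybridised to Affymetrix Mouse Gene 1.0 ST arrays, 1 liver sample per array and 4 arrays per group. The hydrogen water mice had been given water with dissolved molecular hydrogen for 4 weeks from the age of 7 weeks and were killed after a 17 h fast. Control mice have the same starting age of 7 weeks in the labels and were fasted for the same 17 h. Their sample descriptions name no hydrogen water, although the treatment text is the same for all 8 samples, and the groups are those of the sample titles. All animals were of the strain C57BL6 and were housed alike. The labels do not say outright that every array is a separate animal, so p-values may measure only the spread between these samples.

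PGC-1 coactivators do not bind DNA themselves. They dock on nuclear receptors and other transcription factors and raise transcription of genes for respiration, fatty acid oxidation and, in liver, gluconeogenesis. In fasted liver, glucagon acts through CREB and its coactivator CRTC2 on the Ppargc1a gene, and the SIRT1 deacetylase acts on the PGC-1alpha protein. NRF1 and GABP carry the signal on to nuclear genes for mitochondrial proteins, among them Tfam and Tfb2m. Published work on molecular hydrogen has described a stimulation of PGC-1alpha gene expression, and the comparison of hydrogen water with control livers bears on that question at the level of transcripts in the fasted state.

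All 9 measured hepatocyte markers were strongly expressed, between 12.45 for the lowest value of Hnf4a and 14.49 for the highest value of Apoa1 on the log2 scale. The median log2 signal per array lay between 5.27 and 5.37, and the correlation between arrays over all genes between 0.988 and 0.995. The array least like the rest of its group was control 3 (mean correlation 0.989). Signals of different probe sets are not compared with each other here, since each has its own affinity, and all differences are hydrogen water minus control on the log2 scale. Precision is limited by how few arrays there are.

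In hydrogen water livers 9 of the 10 regulators had a higher mean than in control livers, by 0.00 to 0.33, and Nrf1 had a lower one, with a difference of −0.03. Over all genes 48.7% had a difference above 0. The count of 9 held after quantile normalization and was 6 of 10 after each array was set to a common median. That median centring moved the difference of every gene by the same −0.0387. The regulators' median difference was then 0.03, beside −0.04 over all genes. On the deposited scale the median difference of the regulators was 0.07, beside −0.00 over all genes. None passed the test: 0 of 10 had an adjusted p under 0.05 by limma with Benjamini-Hochberg adjustment over all genes, and over all genes the share was 0%. The adjusted p of the 10 lay between 0.687 and 0.997. At an unadjusted p under 0.05 there were 2 of 10, Pprc1 and Ppara, where 7.17% of all genes reached that level, 3.6% higher and 3.57% lower with hydrogen water. Those 2 were also the only members whose groups did not overlap, against 3.76% of all genes, 1.76% higher and 2.01% lower with hydrogen water. After median centring, 0 of the 10 reached an unadjusted p under 0.05 by limma. Of the 19938 genes 1598 did so then, beside 1429 on the deposited scale. The members' count was also 0 without control 4 or without hydrogen water 4, and 1 without control 2, control 3 or hydrogen water 3. The share of all genes is not given for these fits, so the counts have no background beside them.

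**Figure D1:**
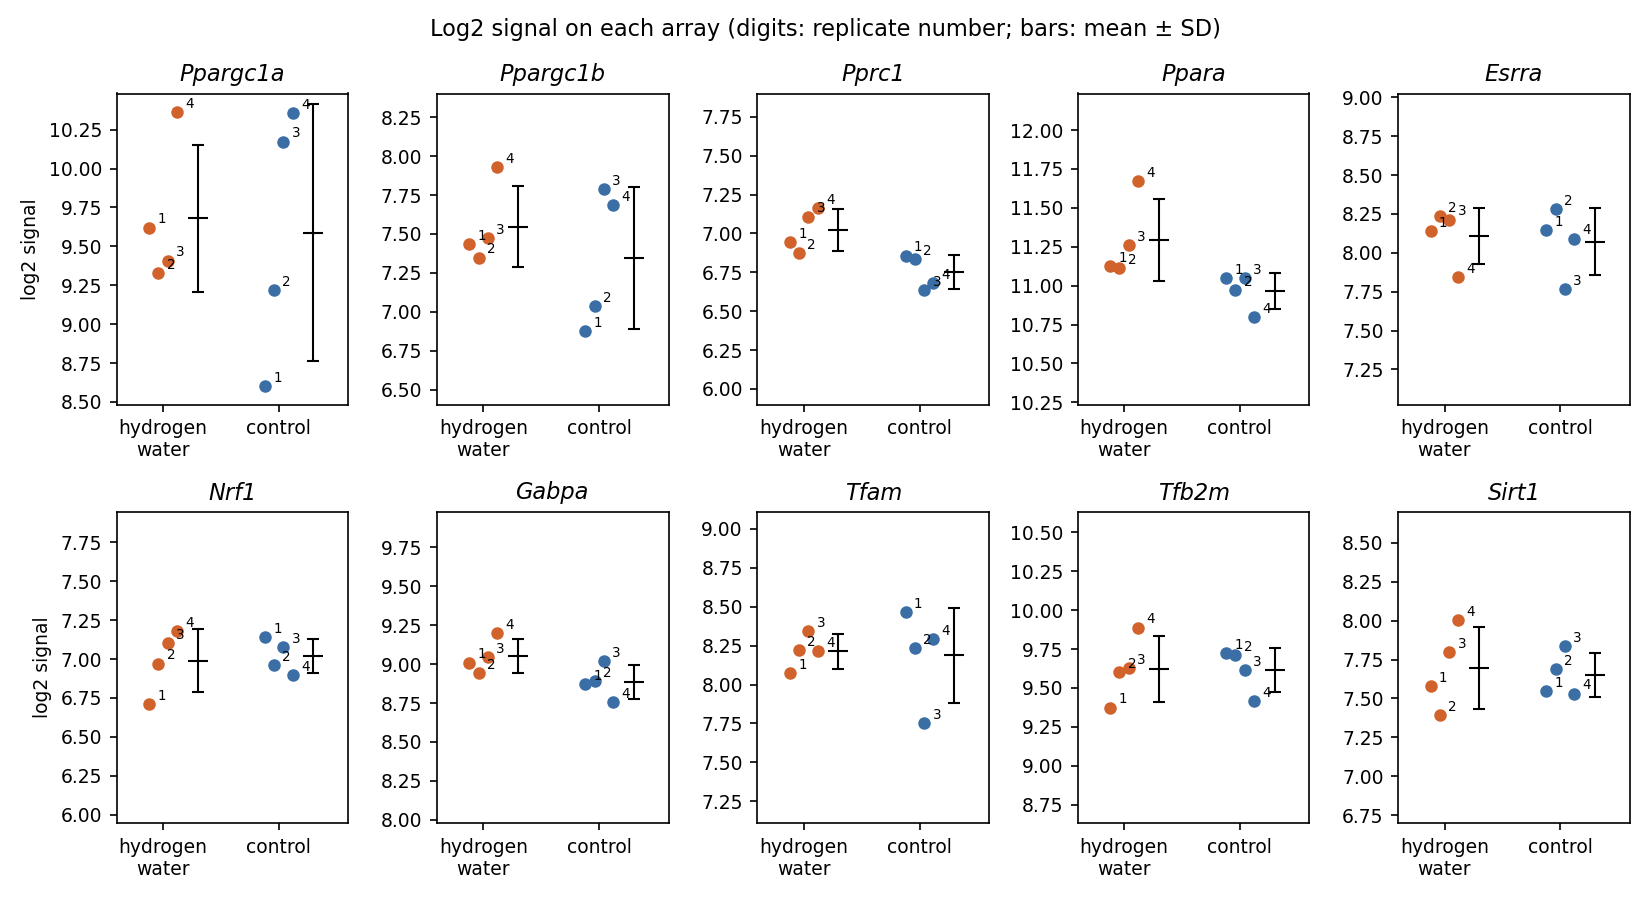
Log2 signal of the 10 regulators (1 panel each, all panels with the same span) on the 4 hydrogen water and the 4 control arrays. Points are arrays, digits their replicate numbers, and black bars the mean ± SD of each group; the points of Pprc1 and Ppara do not overlap between groups, whereas those of Ppargc1a spread from 8.60 to 10.36.

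Ppargc1a encodes PGC-1alpha, the fasting-induced member of the coactivator family. Its main probe set (10529979) read 9.62, 9.33, 9.41 and 10.36 on hydrogen water 1 to 4, against 8.60, 9.22, 10.17 and 10.36 on controls 1 to 4. The highest hydrogen water and the highest control array stood at the same level, and the other hydrogen water values lay inside the range of the controls. Hydrogen water livers averaged 9.68 ± 0.47 and control livers 9.59 ± 0.83 (SD, n = 4 each). The difference was 0.09 (SE 0.35), with a 95% interval of −0.67 to 0.85 (limma adjusted p = 0.978; exact permutation p = 0.8). On the linear scale the interval runs from 0.629 to 1.81 times the control level.

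The second Ppargc1a probe set (10529977) read 8.21, 8.09, 7.83 and 8.61 with hydrogen water, against 7.27, 8.11, 8.62 and 9.04 in controls. It followed the main probe set across the 8 arrays (r = 0.95), and control 1 was the lowest array in both. Its difference had the other sign, −0.08 (95% interval −0.75 to 0.60, limma adjusted p = 0.976). For the main probe set the sign was also negative without control 1 (−0.24), without control 2 (−0.03) and without hydrogen water 4 (−0.14).

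The spread of Ppargc1a between arrays of the same group was wide for this table. Its residual SD of 0.67 exceeded that of 99.4% of the 11612 genes above the median level of all probe sets, where the median residual SD was 0.19. Ppargc1b exceeded 94.2% of these genes on the same measure (residual SD 0.37) and Pprc1 16.3% (residual SD 0.12).

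The bases before a RefSeq start of Ppargc1a are shown because CREB acts on this gene in fasting. A RefSeq promoter window was matched for 9 of the 10 genes by symbol, and the 250 bases before the start were searched on both strands. Capitals mark the match to the CRE half-site TGACG, here on the opposite strand. No full CRE (TGACGTCA) lies in this window. Whether CREB acts through this window or near another start of the gene was not tested.
Ppargc1a promoter, chr5:51567726-51567975, minus strand of GRCm38.p6: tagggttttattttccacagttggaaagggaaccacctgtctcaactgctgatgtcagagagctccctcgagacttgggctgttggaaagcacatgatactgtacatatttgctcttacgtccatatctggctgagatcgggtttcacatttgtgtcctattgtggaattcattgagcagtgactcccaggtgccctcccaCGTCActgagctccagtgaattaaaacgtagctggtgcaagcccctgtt
The half-site match lies 49 to 45 bases before the start. Matches to TGACG were found in 3 of the 9 genes (Ppargc1a, Ppara and Sirt1) and in 17.8% of 32851 promoter windows, and the full CRE, which contains the half-site, in 0 of the 9 and 1.55% of windows. Of the other motifs searched, the ERR site TCAAGGTCA was in 0 of the 9 and 0.387% of windows, and the E-box CACGTG in Sirt1 alone and 6.02% of windows. A match describes letters only.

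Ppargc1b encodes PGC-1beta, a coactivator linked to mitochondrial and lipid genes. It read 7.44, 7.35, 7.47 and 7.93 on hydrogen water 1 to 4, against 6.87, 7.04, 7.79 and 7.68 on controls 1 to 4. Controls 1 and 2 lay below every hydrogen water array, whereas controls 3 and 4 lay above 3 of the 4. Hydrogen water livers averaged 7.55 ± 0.26 and control livers 7.35 ± 0.46 (SD, n = 4 each), and they differed by 0.20 (95% interval −0.25 to 0.65, limma adjusted p = 0.886). The difference was 0.04 without control 1, 0.10 without control 2 and 0.07 without hydrogen water 4, and 0.35 without control 3 and 0.31 without control 4.

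Pprc1 encodes PRC, the third member of the family, known from growing cells as a coactivator that responds to serum. Its log2 signal was 6.94, 6.88, 7.11 and 7.16 on hydrogen water 1 to 4, against 6.86, 6.83, 6.64 and 6.68 on controls 1 to 4. Every hydrogen water array stood above every control, but the lowest of them exceeded the highest control by only 0.02. Hydrogen water livers averaged 7.02 ± 0.13 and control livers 6.75 ± 0.11 (SD, n = 4 each), and they differed by 0.27 (SE 0.11), or 1.21-fold (95% interval 1.03 to 1.42). The exact two-sided permutation p was 0.0286, the smallest that 4 against 4 arrays allow, and the limma adjusted p over all genes was 0.687. Without control 3 and hydrogen water 4 together the difference was 0.19.

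**Figure D2:**
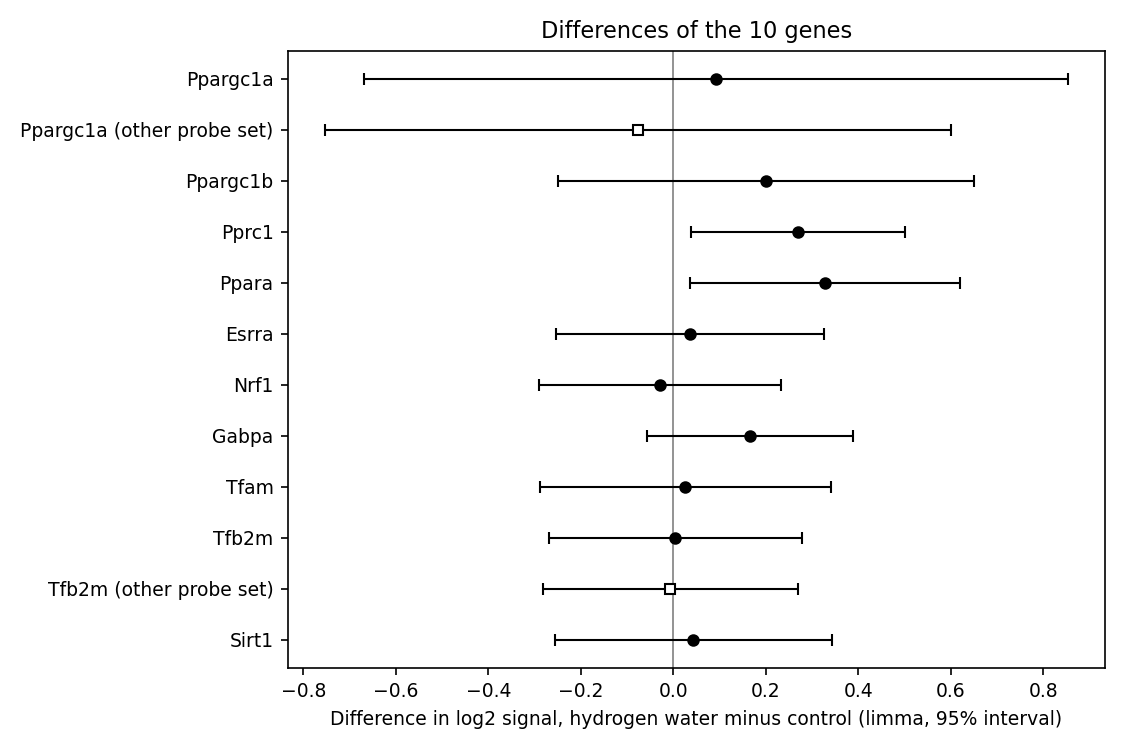
Difference in log2 signal, hydrogen water minus control, with its 95% interval from limma, for the 10 regulators (filled circles) and for the second probe sets of Ppargc1a and Tfb2m (open squares). The intervals of Pprc1 and Ppara lie above 0, and that of Ppargc1a is the widest of the 10, from −0.67 to 0.85.

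Among the receptors that PGC-1 proteins coactivate, Ppara encodes PPARalpha, the fatty acid sensor that drives the hepatic fasting response. It read 11.13, 11.11, 11.26 and 11.67 on hydrogen water 1 to 4, against 11.05, 10.97, 11.05 and 10.80 on controls 1 to 4. The groups did not overlap, with a gap of 0.07 between hydrogen water 2 and control 1. Hydrogen water 4 stood well above the other arrays of its group. Hydrogen water livers averaged 11.29 ± 0.26 and control livers 10.97 ± 0.12 (SD, n = 4 each). The difference was 0.33 (SE 0.13), or 1.26-fold (95% interval 1.03 to 1.54), with an exact permutation p of 0.0286 and a limma adjusted p of 0.687. It was 0.20 without hydrogen water 4.

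The Ppara promoter is shown because it held the only match among the 9 genes to the NRF1 motif (GCGCA, any 1 base, then GCGC), marked in capitals. The letters match on both strands at the same place.
Ppara promoter, chr15:85735526-85735775, plus strand of GRCm38.p6: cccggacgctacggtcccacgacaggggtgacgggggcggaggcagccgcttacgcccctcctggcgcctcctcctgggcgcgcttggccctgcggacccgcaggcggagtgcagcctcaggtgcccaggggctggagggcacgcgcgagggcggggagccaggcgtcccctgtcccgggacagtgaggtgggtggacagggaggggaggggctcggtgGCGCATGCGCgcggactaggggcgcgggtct
The match lies 31 to 22 bases before the start, and 3.74% of all windows hold this motif.

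Esrra encodes ERRalpha, an orphan receptor that carries much of the effect of PGC-1alpha on respiratory genes. Its signal was 8.14, 8.24, 8.21 and 7.84 with hydrogen water, against 8.15, 8.28, 7.77 and 8.09 in controls. One array of each group, hydrogen water 4 and control 3, stood below the rest. The difference was 0.04 (95% interval −0.25 to 0.33, limma adjusted p = 0.977). Its sign turned without control 3 (−0.06) or hydrogen water 2 (−0.0062), with array weights (−0.012) and after median centring (−0.0022).

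The transcription factor Nrf1, an activator of nuclear genes for mitochondrial proteins, read 6.71, 6.97, 7.10 and 7.18 on hydrogen water 1 to 4, against 7.14, 6.96, 7.08 and 6.90 on controls 1 to 4. The groups overlapped, and the difference of −0.03 (95% interval −0.29 to 0.23, limma adjusted p = 0.978) became positive without control 1 (0.01) or hydrogen water 1 (0.06). Gabpa encodes the DNA-binding subunit of GABP, an ETS factor also known as nuclear respiratory factor 2. It read 9.01, 8.94, 9.04 and 9.20 with hydrogen water, against 8.87, 8.89, 9.02 and 8.75 in controls. Only control 3 reached into the hydrogen water range. The difference was 0.17 (95% interval −0.06 to 0.39, limma adjusted p = 0.784, exact permutation p = 0.0857).

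Tfam packages mitochondrial DNA and takes part in its transcription. It read 8.07, 8.22, 8.35 and 8.21 with hydrogen water, against 8.47, 8.24, 7.75 and 8.29 in controls. Control 3 was the lowest array, by a wide margin, and control 1 the highest. The difference was 0.03 (95% interval −0.29 to 0.34, limma adjusted p = 0.983) and became −0.12 without control 3 and −0.02 without hydrogen water 3. The sign was also negative with array weights (−0.04) and after median centring (−0.01). Its promoter is shown as a target of GABP, with the ETS motif CCGGAAG in capitals.
Tfam promoter, chr10:71238045-71238294, minus strand of GRCm38.p6: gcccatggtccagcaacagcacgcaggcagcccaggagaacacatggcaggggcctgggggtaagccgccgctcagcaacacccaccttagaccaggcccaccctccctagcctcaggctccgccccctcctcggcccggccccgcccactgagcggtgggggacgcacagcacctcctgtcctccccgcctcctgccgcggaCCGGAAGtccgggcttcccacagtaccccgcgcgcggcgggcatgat
The match lies 47 to 41 bases before the start. Of the 9 genes, Tfam and Gabpa held this motif, as did 6.91% of all windows.

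Tfb2m, a factor that melts mitochondrial promoters for the mitochondrial RNA polymerase, read 9.37, 9.60, 9.63 and 9.89 with hydrogen water, against 9.73, 9.71, 9.62 and 9.42 in controls. All control values lay inside the wider hydrogen water range, and the difference was 0.00 (95% interval −0.27 to 0.28, limma adjusted p = 0.997). It was −0.06 without control 4 and −0.08 without hydrogen water 4, and also below 0 with array weights (−0.03) and median centring (−0.03). Its second probe set followed the first with r = 0.995 across arrays and differed by −0.01, so the 2 rows may read the same or near-identical sequence and are not separate evidence. Sirt1 encodes the NAD-dependent deacetylase of PGC-1alpha. It read 7.58, 7.39, 7.80 and 8.003 with hydrogen water, against 7.54, 7.69, 7.84 and 7.53 in controls. The lowest and the highest array were both from the hydrogen water group, and the difference was 0.04 (95% interval −0.26 to 0.34, limma adjusted p = 0.971), or −0.06 without hydrogen water 4.

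One array recurred in these values. Hydrogen water 4 held the highest signal of the 8 arrays in 8 of the 10 regulators, all but Esrra and Tfam, beside 16.6% of all genes. Control 3 held the highest signal in 19.8% of all genes and in 0 of the 10. Without both of these arrays the differences were 0.06 for Ppargc1a, 0.22 for Ppargc1b, 0.19 for Pprc1, 0.23 for Ppara and 0.16 for Gabpa, with 0 of the 10 at an unadjusted p under 0.05. For Tfam and Tfb2m they were then −0.12 and −0.08. The share of all genes at that level of p is not given for this fit.

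Among non-parenchymal cells, the markers of Kupffer cells and of sinusoidal endothelial cells were higher on average with hydrogen water. The summed signals of both lists overlapped between the groups. All 10 markers of Kupffer cells and macrophages had a higher mean with hydrogen water, with a median difference of 0.37. Their summed linear signal ranged from 1266 to 2202 with hydrogen water and from 992 to 1709 in controls, and was highest on hydrogen water 4. Clec4f, which marks Kupffer cells, averaged 8.41 with hydrogen water and 7.98 in controls. All 9 markers of sinusoidal endothelial cells were higher as well, with a median difference of 0.32 and summed linear signals of 2835 to 4485 with hydrogen water and 2480 to 3627 in controls. The dimmest of these markers, Marco, read 4.59 to 5.08, below the array medians of 5.27 to 5.37. Of the markers, 0 of the 10 and 0 of the 9 passed limma's adjusted threshold. All were higher after quantile normalization and median centring too. In bulk liver, more cells of a type and more RNA per cell cannot be told apart, and the part of these cells in the values of Pprc1 and Ppara was not tested. The median difference of the 9 hepatocyte markers was −0.01, and those of stellate cell, cholangiocyte, lymphocyte, adipocyte and muscle markers lay between −0.15 and 0.06.

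The family was then examined across the 8 arrays. Ppargc1a was set against the 9 other regulators and 6 target genes (Pck1, G6pc, Cpt1a, Fgf21, Alas1 and Cycs), 15 relations in all. Ppargc1b was closest, with Pearson's r = 0.95 (exact permutation p = 0.000298, adjusted over the 15 relations 0.00446) and Spearman's rho = 0.95 (exact permutation p = 0.00114, adjusted 0.0171). Both genes were lowest on control 1, next lowest on control 2, and highest on hydrogen water 4, control 4 and control 3. Within groups, after centring each group on its mean, r was 0.97 (permutation, adjusted p = 0.0171) and rho 0.88 (permutation, adjusted p = 0.109). These permutations also exchanged centred values between the groups, so their p-values are approximate. Without the 2 arrays farthest from the Ppargc1a median, control 1 and hydrogen water 4, r was 0.87 (exact permutation p = 0.0167, adjusted p = 0.156) and rho 0.89 (exact permutation p = 0.0333, adjusted p = 0.25) over 6 arrays. Neither passed the adjusted threshold there.

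**Figure D3:**
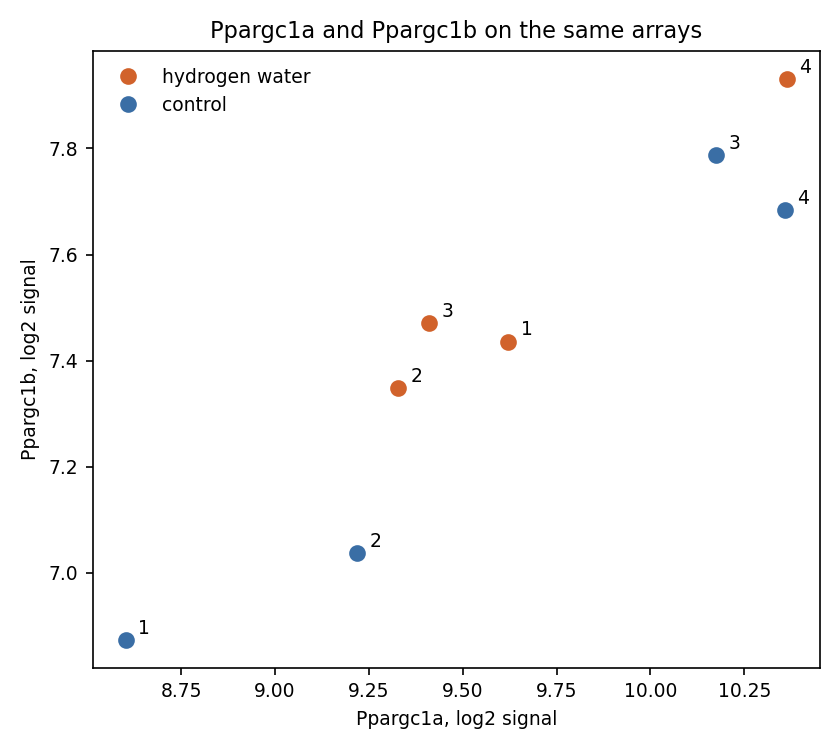
Log2 signal of Ppargc1b (vertical axis) against Ppargc1a (horizontal axis) on the 4 hydrogen water and the 4 control arrays, with replicate numbers beside the points. Ppargc1b rises with Ppargc1a in both groups (r = 0.95 over 8 arrays), with control 1 at the lower end and hydrogen water 4, control 4 and control 3 at the upper end.

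None of the other 14 relations passed after adjustment. Esrra ran opposite to Ppargc1a, with r = −0.69 (exact permutation p = 0.0633, adjusted 0.475) and rho = −0.79 (exact permutation p = 0.0279, adjusted 0.209), and r was −0.76 over 6 arrays. Tfam had r = −0.52 and Sirt1 r = 0.47, with exact permutation p of 0.183 and 0.235. The hepatic targets showed no common direction. Pck1, the rate-limiting enzyme of gluconeogenesis, had r = 0.06, and G6pc, which releases glucose from the liver, r = −0.25 over 8 arrays and −0.84 over 6 (exact permutation p = 0.0208, adjusted 0.156). Cpt1a, the entry step of mitochondrial fatty acid oxidation, had r = 0.56 (exact permutation p = 0.163), which became −0.10 over 6 arrays. Its rho was 0.74 (exact permutation p = 0.0458, adjusted 0.229) and stayed positive over 6 arrays, at 0.37.

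Over the 8 arrays, and among 9696 other genes above the median level without provisional gene models, the 5 most like Ppargc1a were Lrrc8a (r = 0.96), Ppargc1b (r = 0.95), Mir455 (r = 0.94), Tmem196 (r = 0.93) and Cobll1 (r = 0.92). Those most like Ppargc1b were Lrrc8a (r = 0.96), Ppargc1a (r = 0.95), Hjv (r = 0.94), Ciart (r = 0.93) and Ncoa4 (r = 0.92). Lrrc8a encodes a subunit of the volume-regulated anion channel, Hjv the iron regulator hemojuvelin, and Ciart a repressor in the circadian clock. Ciart varied more than either coactivator, from 7.20 to 9.04 with hydrogen water and from 6.18 to 8.94 in controls. These likenesses are the highest of many and are given as a description.

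Around the coactivators, 120 of 134 genes on 6 lists were measured, 60 higher and 60 lower with hydrogen water. By limma 0 passed over all genes (lowest adjusted p = 0.638). At an unadjusted p under 0.05 there were 8 of them, 7 higher and 1 lower, or 6.67% beside 7.17% of all genes.

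**Figure D4:**
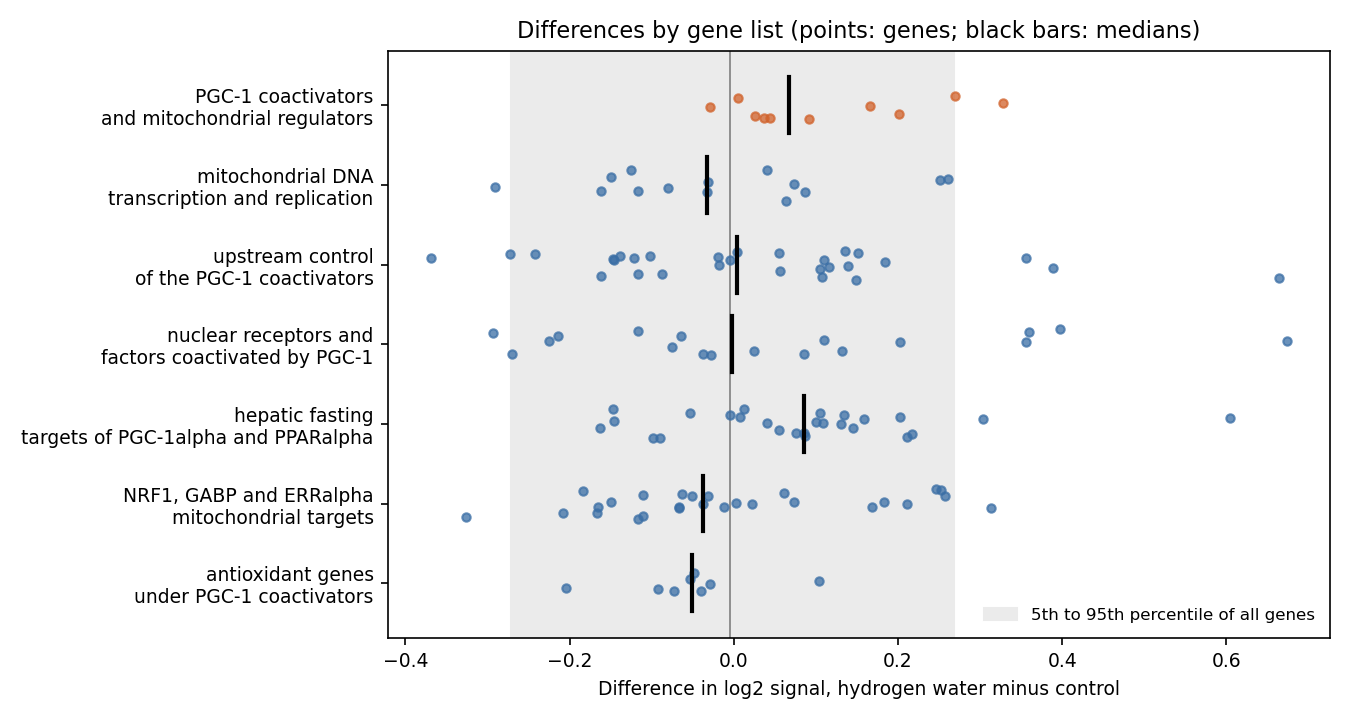
Difference in log2 signal, hydrogen water minus control, of the 10 regulators (top) and of the measured genes on 6 lists around them. Points are genes, black bars list medians, and the grey band the 5th to 95th percentile of all genes; the 6 list medians lie between −0.05 and 0.09, and the regulators' median is 0.07. The band describes single genes and is no yardstick for a median.

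Genes that act on the coactivators from upstream were 15 higher and 14 lower of 29 measured, with a median of 0.00. Mapk14, the p38alpha kinase, differed by 0.39 (SE 0.13), and Sik1, a kinase that keeps CRTC2 out of the nucleus, by 0.66 (SE 0.30). Sik1 read 9.88, 8.92, 9.64 and 9.46 with hydrogen water, against 8.03, 9.75, 8.62 and 8.84 in controls, where control 2 reached into the hydrogen water range. Foxo1, the insulin-restrained factor of gluconeogenesis, differed by 0.36 (SE 0.18) and Crtc2 by −0.10 (SE 0.18). Among acetyltransferases, Kat2b differed by −0.37 (SE 0.13) and Kat2a, whose protein GCN5 acetylates PGC-1alpha, by −0.02 (SE 0.12). The deacetylase Sirt6 differed by −0.24 (SE 0.13). The limma adjusted p of these 7 genes was at least 0.638.

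Of 18 measured receptors and factors that work with PGC-1, 9 were higher and 9 lower, with a median of −0.00. Lpin1, both a lipid phosphatase and a nuclear partner of PGC-1alpha, averaged 12.12 ± 0.47 in hydrogen water livers and 11.45 ± 0.54 in control livers (SD, n = 4 each), and they differed by 0.67 (SE 0.27, limma adjusted p = 0.687). Its highest array was hydrogen water 4, at 12.82. Rxra, the dimer partner of PPARalpha, differed by 0.36 (SE 0.16) and Hnf4a by 0.13 (SE 0.13). On the lower side stood Foxa2 (−0.29, SE 0.18) and Esrrg (−0.21, SE 0.12), an ERRalpha relative.

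The hepatic fasting targets were 19 higher and 7 lower of 26 measured, with a median of 0.09 beside −0.00 over all genes. The median was 0.0069 without control 3, 0.053 without control 4 and 0.13 without control 2. Alas1, the first enzyme of heme synthesis and a PGC-1alpha target in liver, read 12.48, 12.27, 12.82 and 12.60 with hydrogen water, against 12.12, 11.19, 12.22 and 12.22 in controls. The groups did not overlap, and control 2 lay far below the other arrays. The difference was 0.60 (SE 0.21, limma adjusted p = 0.655). Plin2, a lipid droplet coat protein, differed by 0.30 (SE 0.14) and G6pc by 0.13 (SE 0.14), beside Cpt1a at 0.15 (SE 0.11). Pck1 and the hormone Fgf21 both differed by 0.01 (SE 0.12 and SE 0.20). Selenop, a selenium carrier, and the fatty acid transporter Cd36 differed by −0.16 (SE 0.11) and −0.15 (SE 0.15).

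Mitochondrial genes downstream of NRF1, GABP and ERRalpha were 11 higher and 16 lower of 27 measured, with a median of −0.04, which was 0.014 without control 1. Idh3a, a subunit of the citric acid cycle's isocitrate dehydrogenase, differed by 0.31 (SE 0.13) and the import factor Tomm34 by 0.25 (SE 0.14). Uqcrb, a subunit of respiratory complex III, differed by −0.21 (SE 0.11), the import receptor Tomm20 by −0.33 (SE 0.21), and cytochrome c, encoded by Cycs, by −0.17 (SE 0.17).

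For mitochondrial DNA transcription and replication, 6 were higher and 8 lower of 14 measured, with a median of −0.03, which was 0.027 without hydrogen water 4 and −0.072 without control 4. The helicase Twnk differed by 0.26 (SE 0.13), the polymerase subunit Polg2 by 0.25 (SE 0.22), and the RNA polymerase Polrmt by 0.07 (SE 0.10). Tefm, the elongation factor, differed by −0.29 (SE 0.16), Primpol by −0.16 (SE 0.15) and Tfb1m, the relative of Tfb2m that methylates ribosomal RNA, by −0.08 (SE 0.11). Antioxidant genes under PGC-1 control were 1 higher and 7 lower of 8 measured, with a median of −0.05. That median was 0.0020 without control 1, −0.10 without control 3 and −0.090 without control 4. The exception was the mitochondrial peroxiredoxin Prdx3 (0.10, SE 0.16), while the glutathione peroxidase Gpx1 differed by −0.20 (SE 0.12) and the mitochondrial thioredoxin Txn2 by −0.09 (SE 0.09). None of these genes passed by limma over all genes.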

How the data were processed

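Liver RNA of 8 fasted mice was extracted with a QIAGEN RNeasy Mini kit and amplified with the Ambion WT Expression kit, per the labels' protocols. The authors deposited a table of log2 signals with 1 value for every probe set on every array. Per the submitters' processing notes, the tool was Affymetrix Expression Console; its version, its summary and normalization methods and the genome build: not given in the sources used here. The log2 scale was read from the values.

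Of 35556 probe sets, 21789 had 1 gene symbol, 1621 several and 12146 were unnamed here. The symbols are those of GEO's platform annotation, brought up to date by Entrez identifier through a RefSeq table of GRCm38.p6 (19856 of 19938 genes matched). Promoter sequences are RefSeq's for that build.

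The 19938 genes were fitted with limma 3.58.1 in R 4.3.3 (lmFit, eBayes, 2 groups, two-sided), with no filter on level, and adjusted by Benjamini-Hochberg at 0.05. Residual degrees of freedom were 6. The fit was tested on simulated data. Exact permutation tests used all 70 assignments of the arrays, or all 40320 pairings for correlations.

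The members and lists were chosen with earlier results of these data known. Genes named besides the 10 members were 14 chosen by name, the 2 with the smallest unadjusted p per direction on each list, and the 5 most correlated with Ppargc1a and with Ppargc1b. Alternatives covered scaling, probe set choice, a filter on dim probe sets, the variance model, weights for arrays, a block for the replicate number and each array left out. Leaving out control 3 and hydrogen water 4 together was chosen after seeing the data. Genes named only by probe sets with several symbols are not analysed here. Python 3.11.15 with matplotlib 3.10.9 made the plots.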

Additional observations from a re-analysis of the deposited data

Results flagged for a closer look

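The members and the other named genes gave 110 groups of 4 arrays. In 6 of them 1 array stood apart from the other 3 by Dixon's test at the 95% level. Chance alone gives this in about 1 of 20 groups where genes are chosen beforehand. Many of these genes were picked by small p or high correlation in the same values, Lrrc8a and Ncoa4 among them. The count therefore cannot be read against that rate. None of the 6 concerned the 10 regulators. On hydrogen water 4, Lrrc8a stood high at 9.71 (the other hydrogen water arrays at 9.45 to 9.48), Ncoa4 stood high at 11.78 (the others at 11.54 to 11.55), and Esrrg stood low at 5.90 (the others at 6.12 to 6.15). Among controls, Alas1 was low on control 2 at 11.19 (the others at 12.12 to 12.22), Cpt1a was low on control 1 at 12.66 (the others at 12.77 to 12.79), and Foxo1 was high on control 3 at 9.26 (the others at 8.65 to 8.75).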

How the results depend on the processing

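The differences of Ppargc1b, Pprc1, Ppara and Gabpa kept their sign in every alternative, and no member passed the adjusted threshold in any. With each array left out in turn the differences ranged from −0.24 to 0.35 for Ppargc1a, 0.04 to 0.35 for Ppargc1b, 0.22 to 0.32 for Pprc1, 0.20 to 0.39 for Ppara, −0.065 to 0.12 for Esrra, −0.092 to 0.064 for Nrf1, 0.12 to 0.21 for Gabpa, −0.12 to 0.12 for Tfam, −0.084 to 0.087 for Tfb2m and −0.059 to 0.14 for Sirt1. The sign also turned for the other probe sets of Ppargc1a (−0.076) and Tfb2m (−0.0061) and for the mean of the Tfb2m probe sets (−0.00066). Median centring gave −0.0022 for Esrra, −0.012 for Tfam and −0.034 for Tfb2m, and array weights gave −0.012 for Esrra, −0.039 for Tfam and −0.030 for Tfb2m. Without control 3 and hydrogen water 4 together, Tfam stood at −0.12 and Tfb2m at −0.084. The median-centred values are the main differences moved by the −0.0387 that this scaling gives every gene. The cause of the other changes was not tested.

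The number of members at an unadjusted p under 0.05 was 2, ranged from 0 to 2 with 1 array left out, and was 0 with median centring, with the replicate number as a block, and without control 3 and hydrogen water 4. With median centring 1598 of all genes reached that level, and the other settings have no such count here. No pairing by replicate number was seen in the values. The correlation of deviations between arrays of the same number lay between −0.16 and 0.06, and 0 of the 4 controls matched its own number best. Low correlations alone cannot show that the arrays were unpaired. Over all genes limma called 0, with 1429 at an unadjusted p under 0.05; leaving out 1 array gave 0 to 1 calls (Sucnr1 without control 2, Aqp8 without control 3), and leaving out both arrays gave 3. Over the 6 arrays without control 1 and hydrogen water 4, the r of Ppargc1a with Ppargc1b was 0.87, no longer past the adjusted threshold. There the r with Ppara, Gabpa and Cpt1a turned to −0.59, −0.39 and −0.10. Spearman's rho over the same arrays was −0.26, −0.03 and 0.37, so that of Cpt1a kept its sign. With 1 array left out, the median difference ranged from −0.053 to 0.014 for the NRF1, GABP and ERRalpha targets, 0.0069 to 0.13 for the fasting targets, −0.072 to 0.027 for mitochondrial DNA genes, −0.10 to 0.0020 for antioxidant genes, −0.044 to 0.047 for upstream control and −0.039 to 0.052 for receptors and factors, so 5 of the 6 changed sign.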
